A study of Mus musculus with 8 samples.

Results

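The genes described here are 10 members of arginine and citrulline metabolism in the mouse thyroid, namely Ass1, Asl, Arg1, Arg2, Nos1, Nos2, Nos3, Odc1, Ddah1 and Slc7a2. Their probes were found by the gene name that the array files give, which returned 17 of the 55681 different probes of the array, on 36 spots. They were followed in thyroids of untreated mice and of mice exposed to 99mTcO4-, the pertechnetate ion that thyrocytes take up as they do iodide. RNA came from 4 control thyroids (Ct 1 to Ct 4) and from 4 thyroids (S539, S588, S589 and S590) that had received an absorbed dose of 30 Gy, 24 hours after administration of the radioisotope. All mice were Balb/c females of 8 weeks without any genetic change, fed with normal iodide, and the controls are called untreated in one place of the study and saline-treated in another. Each sample was hybridised to 1 one-colour Agilent mouse array, on which a brighter spot means more of the transcript that its probe binds. Values are log2 signals after background subtraction and quantile normalization, so that a difference of 1 stands for a doubling. The genes were chosen by their pathway with the signals of exposed and control thyroids on these arrays already known, that is, partly selected on the contrast itself, so their own differences are given as a description, without p values.

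Argininosuccinate synthase (Ass1) joins citrulline and aspartate, and argininosuccinate lyase (Asl) splits the product into arginine and fumarate. In most tissues outside the liver the pair recycles the citrulline that nitric oxide synthases release, whereas arginases (Arg1 and Arg2) turn arginine into ornithine and urea. Ornithine decarboxylase (Odc1) leads from ornithine to the polyamines, Ddah1 removes methylarginines, which inhibit nitric oxide synthases, and Slc7a2 carries cationic amino acids across the plasma membrane.

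The probes that carry the results are shown by their sequence, because each value below is the signal of these bases and not of a whole gene. Both probes of Ass1 lie near the 3′ end of the transcript on the plus strand of chromosome 2 (mm9, as given in the array files), and the first 30 of their 60 bases are printed. The probes of Asl and Arg1 and 1 of the 2 of Ddah1 are given whole, for the enzymes next to Ass1 and for a gene whose groups stood apart, and that of Nos2 by its first 30 bases.
Ass1, probe A_55_P2004781 (chr2:31376068-31376127): cccccacagcttttgttccctggtccccta
Ass1, probe A_55_P2143070 (chr2:31375998-31376057): tgttgtgataaatttgtaattgtagcttgt
Asl, probe A_51_P174645 (chr5:130487964-130488549, minus strand): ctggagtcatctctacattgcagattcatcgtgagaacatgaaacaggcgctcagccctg
Arg1, probe A_51_P303160 (chr10:24636194-24636253, minus strand): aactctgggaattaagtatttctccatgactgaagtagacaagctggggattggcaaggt
Nos2, probe A_55_P2158741 (chr11:78773567-78773626, plus strand): caccatgccgccgctctaatacttagctgc
Ddah1, probe A_51_P110471 (chr3:145516152-145516211, plus strand): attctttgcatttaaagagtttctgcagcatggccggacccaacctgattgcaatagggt

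The probes of Ass1 do not overlap, with 10 bases between them, so they are separate readings of the same RNA. The one nearer the 3′ end, A_55_P2004781, is also assigned to Gm5424, a transcribed pseudogene on chromosome 10 according to the RefSeq table of GRCm38.p6, and its signal may be shared with that near copy. No such assignment is given for A_55_P2143070. The probe of Asl covers 586 bases of the genome with 60 bases of sequence, and therefore crosses an intron. For Odc1, 4 probes were present, and A_55_P1995173 and A_55_P2035102 share 55 bases with 1 mismatch, printed in capitals in the first 30 shared bases, where it is the substitution T9G counted from the first base printed.
Odc1, probe A_55_P1995173: ccagaagcTtatgttgtgacccattgtgaa
Odc1, probe A_55_P2035102: ccagaagcGtatgttgtgacccattgtgaa

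Between 60.5% and 77.3% of the spots of an array were well above background, a mark that the scanner software sets, and no spot was saturated. All arrays were on 1 slide, with exposed samples at positions 1 to 4 and controls at 5 to 8, so position and exposure cannot be told apart. The thyroid origin was checked with Tg (thyroglobulin), whose log2 signal was between 18.7 and 19.07 on all arrays, with a difference of 0.04 ± 0.13 (SE, n = 4 against 4). Genes of developing T cells, which do not belong to thyroid tissue, stood out on 2 control arrays. Rag1, which starts the rearrangement of T cell receptor genes, had a log2 signal of 11.96 in Ct 1 and 10.64 in Ct 2, and between 2.8 and 5.45 on the other arrays. Neutrophil genes stood out in S588, and skeletal muscle genes were low in S539 and S589. Without Ct 1 and Ct 2, the log2 differences of the 17 probes kept their sign except for Slc7a2, which went from −0.37 to 0.27, and 1 of the 4 probes of Odc1 (A_52_P436238), from 0.07 to −0.09.

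**Figure D1:**
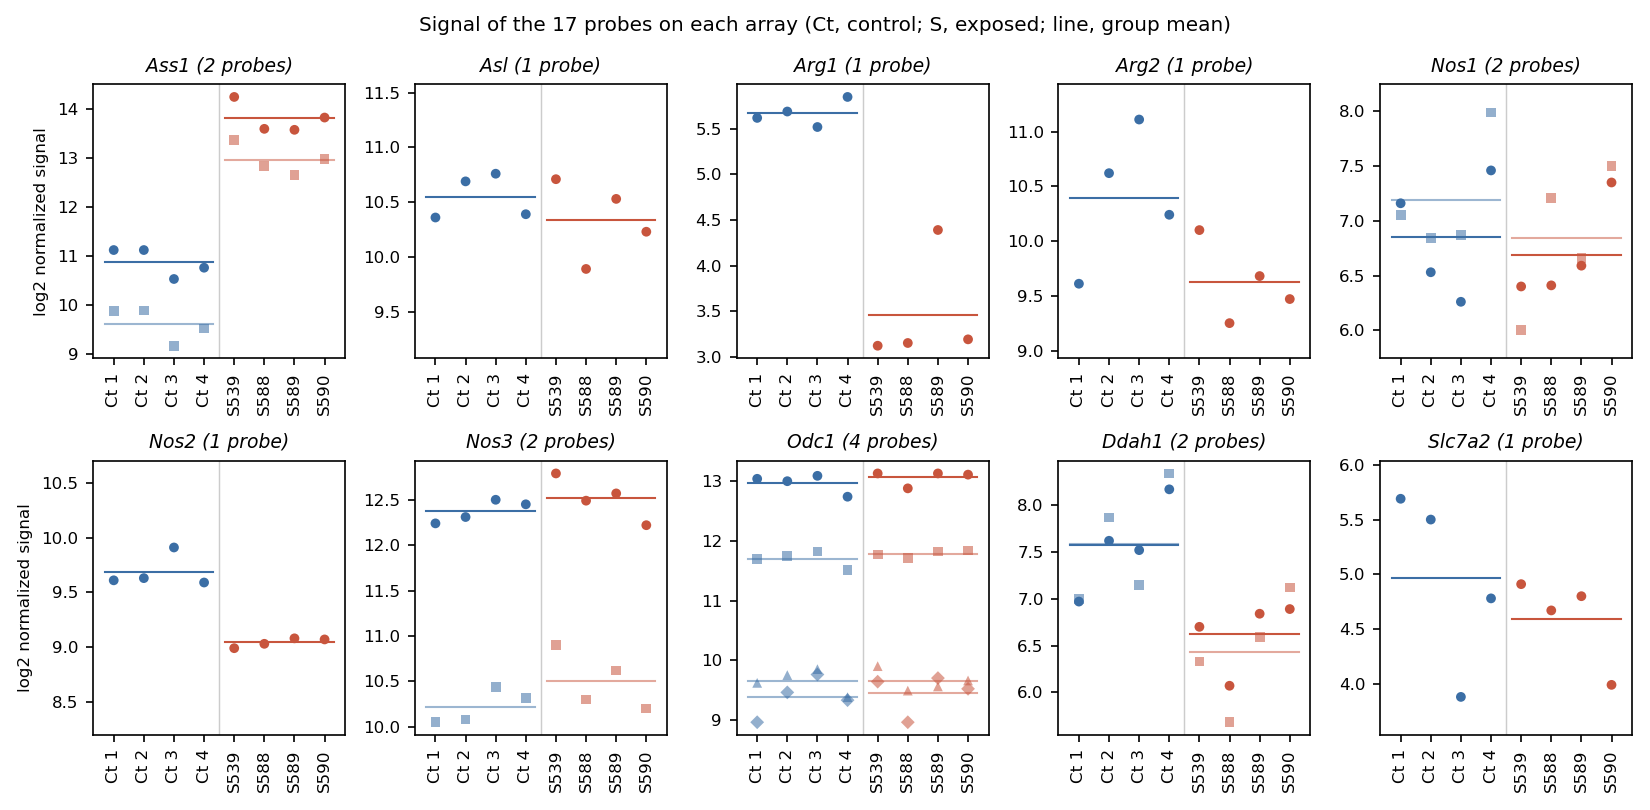
Each panel plots the log2 normalized signal of 1 gene on the 8 arrays, with controls in blue and exposed thyroids in red, another symbol for each probe and a line at each group mean (n = 4). The exposed arrays lie above all control arrays for both Ass1 probes, and below them for Arg1, for Nos2 and for 1 of the 2 probes of Ddah1.

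Ass1 was higher in every exposed thyroid than in every control thyroid. With A_55_P2004781 the log2 signal was 11.12, 11.12, 10.53 and 10.76 in Ct 1 to Ct 4, and 14.24, 13.59, 13.57 and 13.82 in S539, S588, S589 and S590. The lowest exposed value was 2.45 above the highest control value, and the group means were 10.88 ± 0.29 (SD, n = 4) and 13.8 ± 0.31. This is a log2 difference of 2.92 ± 0.21 (SE), or 7.58-fold. With A_55_P2143070, which is not assigned to the pseudogene, the log2 signal was 9.87, 9.89, 9.17 and 9.52 in the controls and 13.37, 12.84, 12.65 and 12.97 in the exposed thyroids in the same order. The difference was 3.34 ± 0.23, or 10.1-fold. The part of the near copy in the signal of A_55_P2004781 was not tested. S539 was the highest exposed array and S589 the lowest with both probes, and Ct 3 was the lowest control.

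Among all 55681 probes, 0.781% passed the threshold of 0.05 on the limma adjusted p (0.587% higher and 0.194% lower in exposed thyroids). Of the 17 probes 3 did, both of Ass1 (higher) and that of Arg1 (lower). As the members were chosen with this contrast known, nothing is read from that count. Without Ct 1 and Ct 2, the arrays with T cell genes, the log2 difference of Ass1 was 3.16 and 3.61. Leaving out any 1 array kept both probes past the threshold, with values between 2.78 and 3.00 for A_55_P2004781 and between 3.19 and 3.45 for A_55_P2143070.

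**Figure D2:**
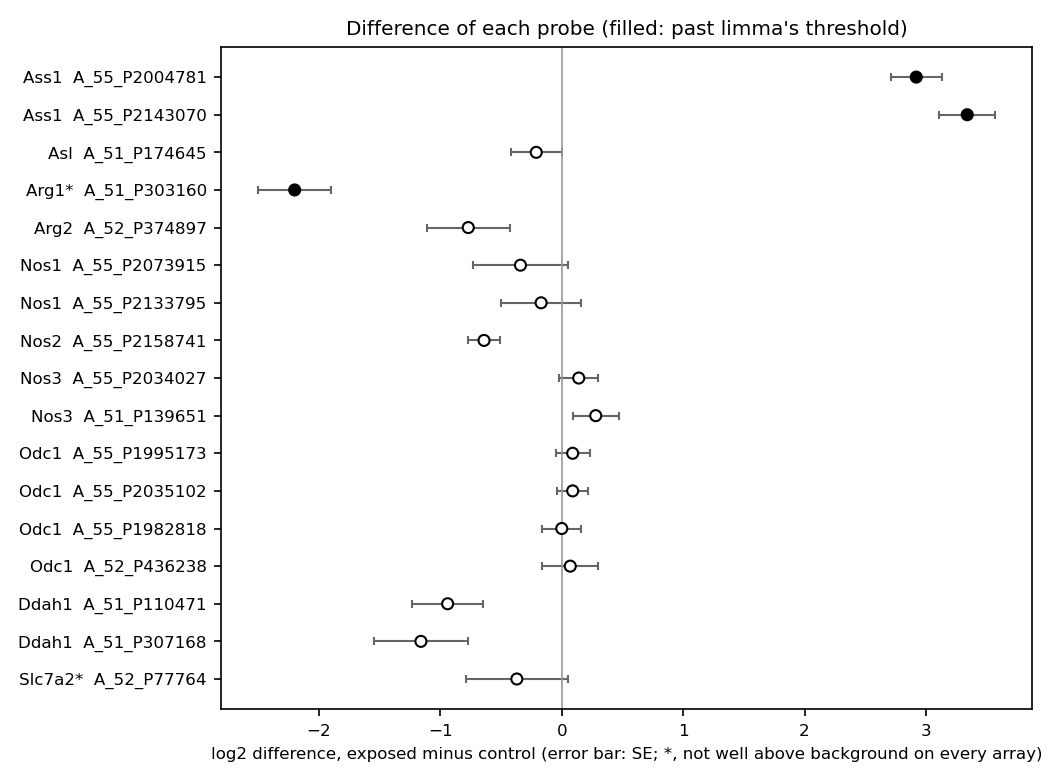
The log2 difference, exposed minus control, is plotted for each of the 17 probes with its SE from limma, filled where the probe passed the adjusted threshold; a star marks probes that were not well above background on every array of either group. The probes of Ass1 lie at 2.92 and 3.34, that of Arg1 at −2.20, and the others between −1.16 and 0.28.

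Asl, the enzyme of the next step, had nearly the same signal in both groups. Its log2 signal was 10.36, 10.69, 10.76 and 10.39 in the controls, and 10.71, 9.89, 10.53 and 10.23 in S539, S588, S589 and S590. The groups overlapped, and the difference was −0.21 ± 0.21. Under the other ways of processing it ranged from −0.25 to −0.09.

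Both arginases had a lower mean signal in the exposed group. For Arg1, the cytosolic arginase, the log2 signal was 5.62, 5.69, 5.52 and 5.85 in the controls and 3.12, 3.15, 4.39 and 3.19 in the exposed thyroids, where S589 stood above the other 3. The groups did not overlap, but the probe was well above background on only 2 of the 4 control arrays and on none of the exposed ones. The size of the measured difference, −2.20 ± 0.30, thus rests on signals near background. Set against the lowest exposed signals that count as above background, the control mean gave at least a 1.87-fold lower signal under this background subtraction, but only 2 control arrays measured the probe and this limit did not hold in other fits. With no background subtraction the log2 difference was −0.74, in the log2 values that the authors deposited −0.75, and with normexp −0.63, all smaller than the 0.90 that the limit stands for. Arg1 passed the threshold in these fits, but lost it when Ct 2, Ct 3, Ct 4, S539, S588 or S590 was left out, after scaling the arrays to their 75th percentile (−1.89), with the methods' t-test after adjustment, and without Ct 1 and Ct 2 together (−2.22). Arg2, the mitochondrial arginase, was bright on every array, with 9.61, 10.62, 11.11 and 10.24 in the controls and 10.1, 9.25, 9.68 and 9.47 in the exposed thyroids. Its groups overlapped through Ct 1, the difference was −0.77 ± 0.34, and the probe did not pass the threshold.

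Of the nitric oxide synthases, Nos2, the inducible form, was lower in each exposed thyroid. Its log2 signal was 9.61, 9.63, 9.91 and 9.59 in the controls and 8.99, 9.03, 9.08 and 9.07 in the exposed thyroids. The spread within the exposed group was 0.04 (SD), the gap between the groups 0.51, and the difference −0.64 ± 0.13, a 1.56-fold lower signal. It did not pass the adjusted threshold, nor did it in the deposited values (−0.53). It passed with a variance trend, with array weights and with the methods' t-test after adjustment. The groups did not overlap for 5 of the 17 probes, 2 with the exposed arrays above (Ass1) and 3 with them below, beside 9.11% of all 55681 probes. Nos3, the endothelial form, had differences of 0.14 ± 0.16 and 0.28 ± 0.19 with its 2 probes, and its groups overlapped with both. Without Ct 1 and Ct 2 these were 0.04 and 0.12. Of 9 endothelial marker genes 6 were higher and 3 lower, from Kdr at −0.55 ± 0.21 (adjusted p = 0.354 by limma) to Cdh5 at 0.14 ± 0.14, Pecam1 was at 0.08 ± 0.21, and the mean of the list differed by −0.03. None of them passed the threshold, and their part in the values of Nos3 was not tested. Nos1, the neuronal form, was dim, with log2 signals between 6.00 and 7.99, overlapping groups, and differences of −0.34 ± 0.39 and −0.17 ± 0.33, the second of which turned to 0.10 with scaling to the 75th percentile.

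Markers of macrophages, in which both Arg1 and Nos2 are known to be expressed, had a lower mean in the exposed thyroids. Of 11 such genes 9 were lower, and their mean centred log2 signal was between 0.04 and 0.32 in controls and between −0.40 and −0.10 in exposed thyroids. This difference of −0.44 gave a two-sided exact permutation p of 0.0286 over the 70 assignments of arrays, the smallest these allow, and 0.129 after adjustment over 9 marker lists. Cx3cr1, the fractalkine receptor, was the only macrophage marker past limma's threshold, with a log2 difference of −2.43 and an adjusted p of 0.00714. Csf1r (−0.63, adjusted p 0.149) and Emr1 (−0.58, adjusted p 0.362), which define macrophages, were not past it. The 2 markers of the list that were higher, Cd68 (0.63 ± 0.58) and Lyz2 (0.12 ± 0.25), were not past it either. In whole tissue fewer cells of a type and less RNA per cell cannot be told apart, and the part of macrophages in the values of Arg1 and Nos2 was not tested.

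Ddah1, dimethylarginine dimethylaminohydrolase, was dimmer in exposed thyroids with both probes. With A_51_P110471, printed on 10 spots, the log2 signal was 6.97, 7.62, 7.52 and 8.17 in the controls and 6.70, 6.07, 6.84 and 6.89 in the exposed thyroids. The groups were separated by 0.08, with Ct 1 next to S590, and the difference was −0.94 ± 0.29. With A_51_P307168, further along the gene, the difference was −1.16 ± 0.39 with overlapping groups. Neither probe passed the adjusted threshold. The size depended on how background was treated. In the deposited values the differences were −0.64 for A_51_P110471 and −0.85 for A_51_P307168, and with normexp −0.59 and −0.77.

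Odc1 showed no difference larger than its SE with any probe. With its brightest probe, A_55_P1995173, the log2 signal was 13.04, 13, 13.09 and 12.74 in the controls and 13.13, 12.88, 13.13 and 13.11 in the exposed thyroids. Differences of the 4 probes were 0.09 ± 0.14, 0.09 ± 0.13, 0.00 ± 0.16 and 0.07 ± 0.23. The pair with 1 mismatch gave the same difference, and all groups overlapped. Slc7a2, the transporter, was near background, well above it on 2 of 4 arrays in each group. Its log2 signal was 5.69, 5.5, 3.88 and 4.78 in the controls and 4.91, 4.67, 4.80 and 3.99 in the exposed thyroids, and its difference of −0.37 ± 0.42 turned to 0.19 with scaling to the 75th percentile and to 0.27 without Ct 1 and Ct 2.

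Read by 1 probe per gene (the RefSeq probe of highest mean signal), 2 of the 10 members passed the threshold, beside 1.2% of 21021 genes read in this way. Ass1 was the one among them that was higher, where 0.904% of all genes were called higher, and Arg1 the one that was lower, where 0.295% were. The groups did not overlap for 4 of the 10 members (Ass1, Arg1, Nos2 and Ddah1) and for 11.7% of all genes. The median log2 difference of the 10 members was −0.29, and 7 of them were lower, beside a median of −0.03 over all genes. The members are few and were chosen with their values known, so the median is a description only.

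The profile of Ass1 over the 8 arrays was set beside those of 13766 genes whose log2 signal averaged 7 or more, each centred on its own mean, and likeness was measured as the root mean square of the differences. The 5 nearest genes were Dcxr (dicarbonyl and L-xylulose reductase) at 0.18, Eppk1 (epiplakin) at 0.26, Plk5 (a polo-like kinase) at 0.28, Susd4 (a complement regulator) at 0.30 and Trp53inp1 (a nuclear protein induced by p53) at 0.31. Dcxr was nearer than the other probe of Ass1 itself, which lay at 0.22. All 5 genes were higher in exposed thyroids, by 2.91 for Dcxr, 3.07 for Eppk1, 2.58 for Plk5, 2.78 for Susd4 and 2.49 for Trp53inp1, and in each S539 was the highest array. As the largest part of a profile is the difference between the groups, genes with a similar difference come out near to each other, and no more is read from the likeness.

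**Figure D3:**
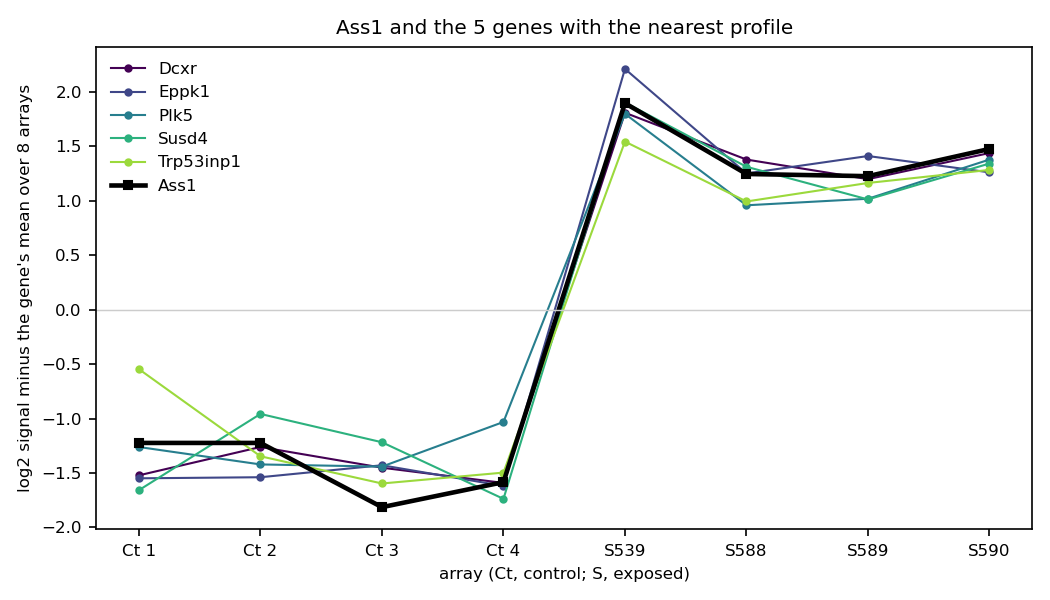
Log2 signals of Ass1 (black) and of the 5 genes with the nearest profile are plotted by array, each minus its mean over the 8 arrays. The differences between exposed and control thyroids are 2.92 for Ass1 and between 2.49 and 3.07 for the others, and S539 is the highest array for all 6.

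Outside these 10 members, 79 genes of the neighbouring pathways were listed, of which 77 had a RefSeq probe (all but Amd1 and Oaz2). None passed the adjusted threshold in limma in either direction, where 1.2% of all genes did. At an unadjusted p under 0.05 there were 13 of the 77, or 16.9%, against 14.6% of all genes, and the median log2 difference was −0.05 against −0.03. The groups did not overlap for 11 of the 77, or 14.3%, against 11.7% of all genes, so little is read from separated groups below. Fits with another background treatment, with the deposited values, with a variance trend or with array weights called 2 of the 77 lower, and the methods' t-test after adjustment called 1. These were Slc7a7, Oaz1, Ddah2 and Aldh18a1, each in some of the fits.

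In the list of the urea cycle and arginine synthesis, 6 of 11 genes were higher and 5 lower with a median of 0.06, and none passed the threshold. Only 6 of the 11 were well above background on every array. Cps1, Otc, Nags and Slc25a2, all counted as higher, were not, nor was Slc25a15, counted as lower, so little is read from this count and median. The liver enzymes Cps1 and Otc were near background, Otc on every array. Slc25a13, an aspartate-glutamate carrier, differed by −0.32 ± 0.22 (adjusted p = 0.581 by limma). Slc25a12, another carrier of this kind, had a difference of −1.04 ± 0.53 (adjusted p = 0.475), and Got1, which forms aspartate in the cytosol, −0.85 ± 0.41 (adjusted p = 0.456). Signals of Slc25a12 were 14.47 in Ct 4 and 13.73 in Ct 1 but 11.57 in S539 and 11.79 in S589, and those of Got1 lay highest and lowest on the same arrays. The marker score of skeletal muscle, over 9 genes, was 1.10 and 0.80 in Ct 4 and Ct 1 and −1.40 and −1.23 in S539 and S589, so muscle genes moved with these genes, and their part was not tested. Fh1 and Asns, which handle fumarate and asparagine, differed by 0.10 ± 0.22 and 0.06 ± 0.22.

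In the proline and glutamate branch, Aldh18a1, which starts proline and ornithine synthesis from glutamate, was 8.51, 9.17, 9.02 and 8.2 in the controls and 7.85, 7.63, 7.84 and 7.68 in the exposed thyroids. Its groups did not overlap, with a difference of −0.98 ± 0.23 and an adjusted p of 0.138. Oat, ornithine aminotransferase, differed by −0.66 ± 0.25 (adjusted p = 0.343), Glul (glutamine synthetase) by 0.63 ± 0.20 (0.278) and Aldh4a1 by 0.32 ± 0.16 (0.461). The list as a whole had a median of 0.03, with 6 of 11 higher.

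Among cationic amino acid transporters, Slc7a7, which encodes the transporter light chain y+LAT1, had the smallest adjusted p of the list. Its log2 signal was between 11.33 and 11.75 in controls and between 10.66 and 11.14 in exposed thyroids, without overlap, and the difference of −0.77 ± 0.17 gave an adjusted p of 0.113 in limma (0.0406 in the deposited values). Slc7a1, the widely expressed arginine carrier, differed by −0.32 ± 0.20, Slc7a6 by 0.38 ± 0.20 and Slc38a9 by 0.13 ± 0.15. Of 9 genes, 4 were higher and 5 lower, with a median of −0.01, but only 5 of the 9 were well above background on every array. Like Arg1, Slc7a7 is known to be expressed in macrophages, whose markers are given above, though not only in them. The part of macrophages in its values was not tested.

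Genes of the nitric oxide cofactor, of partners of the synthases and of the nitric oxide receptor had a median of −0.06, with 9 of 13 lower. Qdpr, which regenerates tetrahydrobiopterin, had −0.50 ± 0.14 with separated groups (adjusted p = 0.211), and Spr, which completes its synthesis, had 0.39 ± 0.15 (0.371), also with separated groups. Gchfr, a regulator of the first step, differed by 0.45 ± 0.30, and Gch1, the enzyme of that step, by −0.28 ± 0.22. Prkg1, the kinase that cyclic GMP activates, had −1.07 ± 0.56 (adjusted p = 0.482), and was highest in Ct 4 (10.5) and lowest in S539 (7.56), as was the skeletal muscle score.

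Methylarginine formation and removal had the lowest median of the lists, −0.27, with 6 of 10 lower. Ddah2, the second enzyme of Ddah1's kind, had the smallest adjusted p of all 77 genes. Its log2 signal was 13.14, 13.89, 13.87 and 13.36 in the controls and 12.71, 12.47, 12.68 and 12.67 in the exposed thyroids. The difference was −0.94 ± 0.20 and the adjusted p 0.110, which became 0.0460 with a variance trend and 0.0241 with array weights. Prmt1, the main arginine methyltransferase, differed by −0.31 ± 0.15 (adjusted p = 0.450), Prmt2 by 0.08 ± 0.19 and Carm1 by 0.03 ± 0.26.

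In polyamine synthesis and turnover, past Odc1, Oaz1 (the antizyme that inhibits Odc1) and Eif5a (the factor that receives hypusine from spermidine) were lower on every exposed array than on every control array. Oaz1 lay between 16.44 and 16.57 in controls and between 15.91 and 16.15 in exposed thyroids, a difference of −0.47 ± 0.12 with an adjusted p of 0.166. Eif5a had −0.41 ± 0.12 and 0.240. Smox, spermine oxidase, differed by 0.38 ± 0.20. Agmat, agmatinase, had a difference of 1.00 ± 0.66 that rested on S588, where its signal was 11.94 against 8.61 to 10.03 on the other exposed arrays, and without S588 it was 0.40. S588 is also the array with the highest neutrophil score (3.14, against at most 0.18 on any other array), and the part of those cells was not tested.

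For creatine synthesis, arginyl transfer and the peptidylarginine deiminases, which make citrulline within proteins, 8 of 10 genes were lower with a median of −0.12. Padi2 differed by −1.20 ± 0.50 (adjusted p = 0.394) and Gamt, which completes creatine synthesis, by −0.80 ± 0.29 (0.327). Padi2 was lowest in S589 (9.18) and S539 (9.3) and highest in Ct 4 (11.81) and Ct 1 (11.59), and Gamt in S539 (10.23) and S589 (10.52) and in Ct 4 (11.97) and Ct 1 (11.71). These are the arrays at the ends of the skeletal muscle score, and the part of muscle in both was not tested. Ate1, the arginyl transferase, differed by 0.11 ± 0.21.

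**Figure D4:**
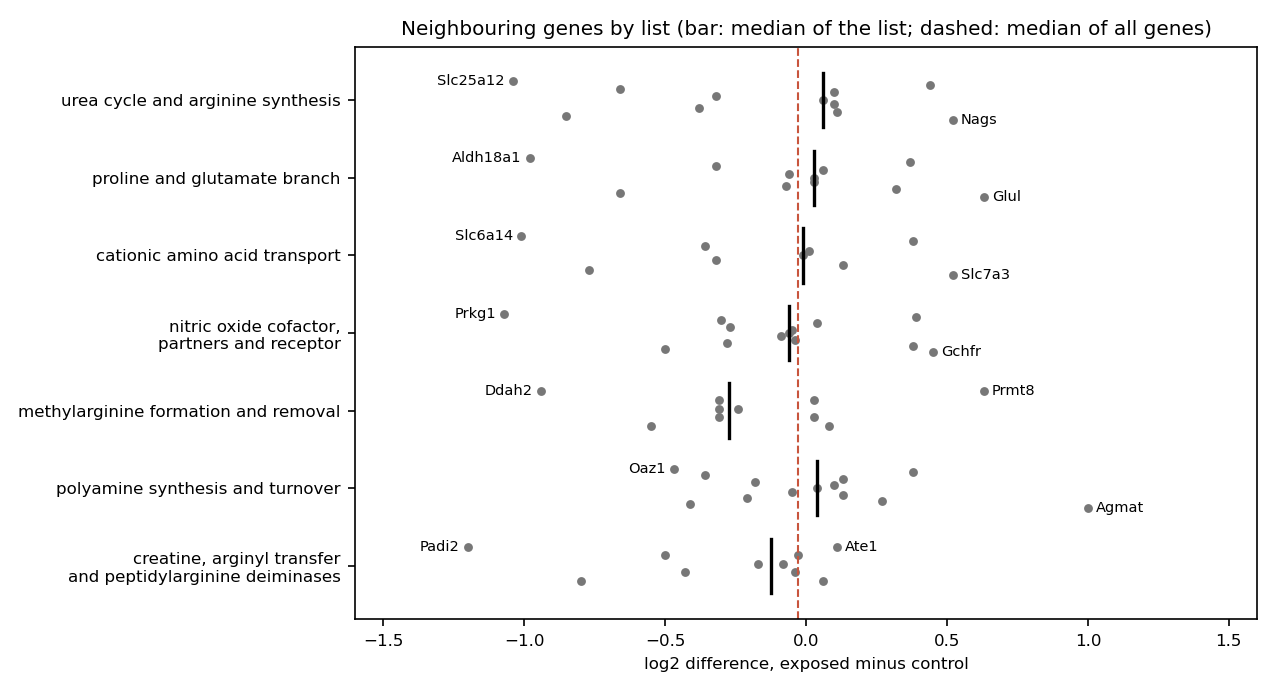
Every dot is the log2 difference, exposed minus control, of 1 of the 77 measured genes outside the members, arranged in 7 lists, with a bar at the median of each list and a dashed line at the median of all genes (−0.03). The lowest and the highest gene of each list are named; no gene passed limma's adjusted threshold.

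Thyrocyte markers were also compared, since the members are read in whole glands. Of 9 such genes 7 were lower, and the score differed by −0.64 between groups (exact permutation p = 0.0286, two-sided, and 0.129 adjusted over 9 lists). Dio1, the type 1 deiodinase, was the only one past limma's threshold, at −2.46 with an adjusted p of 0.0153. After adjustment none of the 9 marker lists passed 0.05. Besides thyrocytes and macrophages, the smallest unadjusted exact permutation p among the other 7 was 0.114, for parathyroid and C cells. Pth, the hormone gene of the neighbouring parathyroid glands, was bright on every array, with log2 signals of at least 18.04. Calca, the calcitonin gene of the C cells that lie within the thyroid, was at least 16.67.

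**Figure D5:**
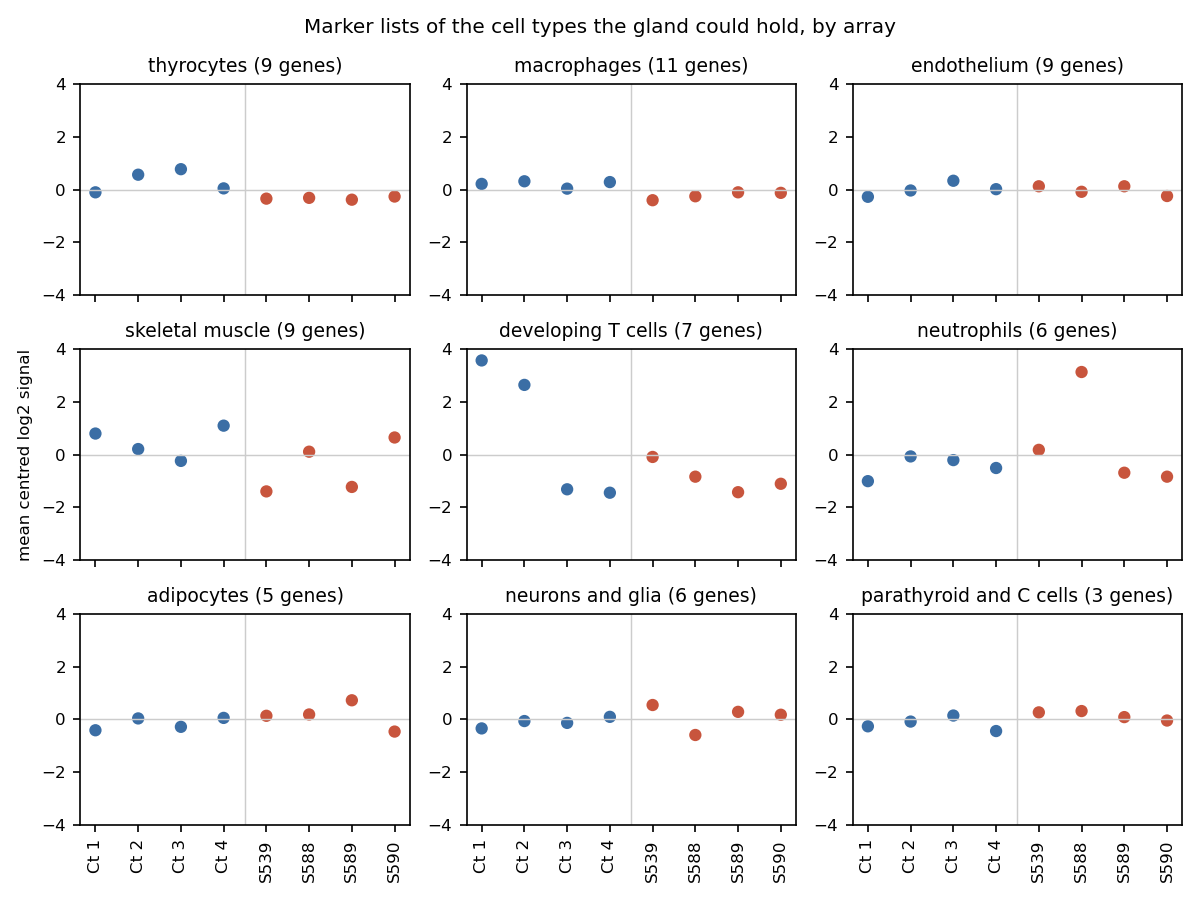
Each panel plots, by array, the mean centred log2 signal of a list of marker genes, with controls in blue and exposed thyroids in red. Developing T cell genes reach 3.58 in Ct 1 and 2.65 in Ct 2, neutrophil genes 3.14 in S588, and skeletal muscle genes run from −1.40 in S539 to 1.10 in Ct 4.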

How the data were processed

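The authors obtained spot intensity with Agilent Feature Extraction 10.7.3.1 from 8 one-colour SurePrint G3 arrays (probe positions in mm9) and normalized the arrays by quantiles in limma. The log2 table they deposited matched quantile-normalized log2 of the median spot signal within 0.0378 (median 0.0113), without background subtraction. Here the log2 of the background-subtracted intensity of 59305 non-control spots was quantile-normalized, and spots of a probe were averaged. Exposed and control arrays (4 each, separate animals) were compared with lmFit and eBayes (limma 3.58.1, R 4.3.3) and Benjamini-Hochberg adjustment over 55681 probes. For a probe well above background nowhere in a group, the bound used the faintest signal still so on each array. The precision is limited by the number of arrays, and signals of different probes were not compared. Marker scores are means of centred log2 signals.

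Named were all members, neighbouring genes past the threshold, in each list the 2 largest rises and 2 largest falls with an average log2 signal of 7 or more, and the 5 genes nearest to Ass1. Defining markers were named as well (Tg, Csf1r, Emr1, Pecam1, Cdh5, Rag1). Gch1, Cps1, Otc, Nags, Slc25a2, Slc25a13, Slc25a15, Kdr, Cx3cr1, Cd68, Lyz2, Dio1, Pth and Calca were named after their values were seen. Members and lists were chosen with earlier results of these data known. All 10 members and all 77 neighbouring genes were found in the RefSeq table of GRCm38.p6, 3 as synonyms.

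Alternatives were scaling to the 75th percentile, normexp (offset 50), intensity without background correction, the deposited values, no outlier-marked spots, a filter on dim probes, a variance trend, array weights, averaged RefSeq probes, the methods' t-test and leaving out each array. The methods' t-test is the Student's t-test that the study names for dual comparisons, whereas for the arrays it names a B-test. Leaving out Ct 1 and Ct 2 together was chosen after seeing the data. The fit was tested on simulated arrays.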

Additional observations from a re-analysis of the deposited data

Results flagged for a closer look

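In 106 groups of 4 arrays tested for a single array far from the others, 7 stood out, where chance gives about 5.3. Arg1 in S589 had a log2 signal of 4.39, against 3.12 to 3.19 on the other exposed arrays, all not well above background. Nos2 was 9.91 in Ct 3 and between 9.59 and 9.63 in the other controls. Odc1 (A_55_P1995173) was 12.88 in S588, below 13.11 to 13.13 on the other exposed arrays. Among neighbouring genes, Fh1 was 14.84 in Ct 4 (14.13 to 14.24 in the other controls), Slc7a6 was 7.52 in Ct 1 (8.05 to 8.16), Smox was 11.66 in Ct 4 (11.76 to 11.77), and Prmt1 was 13.57 in S590 (13.22 to 13.25 on the other exposed arrays).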

How the results depend on the processing

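The log2 difference of the leading Ass1 probe was between 2.83 and 3.16 under 11 alternatives and between 2.78 and 3.00 when 1 array was left out, past the threshold each time, as was the other Ass1 probe. Of the member genes, 2 passed the threshold as reported, 1 with scaling to the 75th percentile, with the filter on dim probes (which removes Arg1) and without Ct 1 and Ct 2 together, 4 with the methods' t-test before adjustment, and 1 to 2 with 1 array left out. Of the member probes 3 passed, 6 with the methods' t-test before adjustment, and 2 to 3 with 1 array left out. Of the 77 neighbouring genes 0 were higher or lower past the threshold as reported. With normexp, no background correction, the deposited values, a variance trend or array weights 2 were lower, with the methods' t-test after adjustment 1, and before adjustment 15 were lower and 2 higher. Over all probes the calls were 435 as reported, 955 in the deposited values, 959 with array weights and 100 without S590.

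Leaving out 1 array gave −0.02 to 0.27 for Fh1, −0.12 to 0.20 for Asns, −0.02 to 0.20 for Prmt2, −0.08 to 0.24 for Carm1, −0.06 to 0.24 for Ate1 and −0.13 to 0.08 for the endothelial score. Of the members, the sign changed for Nos1 (A_55_P2133795), to 0.10 with scaling to the 75th percentile, 0.11 with array weights and 0.04 without Ct 4, and for Slc7a2, to 0.19 with that scaling and 0.27 without Ct 1 and Ct 2. It also changed for Odc1, where A_52_P436238 ranged from −0.07 to 0.24 with 1 array left out and from −0.09 to 0.09 under other alternatives, and A_55_P1982818 from −0.09 to 0.07 and from −0.06 to 0.04. Of the neighbouring genes named, the sign changed for Fh1 to −0.02 without S589 and −0.06 without Ct 1 and Ct 2, Asns to −0.12 without S589, Prmt2 to −0.02 with array weights or without Ct 1 and −0.0036 without Ct 4, Carm1 to −0.06, −0.07, −0.08 and −0.02 without Ct 3, Ct 4, S588 and S590, and Ate1 to −0.06 without S588 and −0.04 without Ct 1 and Ct 2. The endothelial score turned to 0.08 without Ct 3 and 0.04 without S590, and that of developing T cells to 0.52 without Ct 1 and Ct 2 (exact permutation p = 0.267). The cause was not tested. Scaling to the 75th percentile moved the median of all probes by 0.16. Levels near background, as for Arg1 and Slc7a2, limit the size of their differences. No paired analysis was possible because the groups share no replicate numbers.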
